A study of Mus musculus with 12 samples.

Results

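Tumours grown from an anti-PD-1 resistant lung adenocarcinoma line were compared here with tumours of its parental line while the host mice received anti-PD-1, across the 15493 genes that passed a filter on dim probe sets. The members are the 6 arrays of these treated tumours, 3 resistant and 3 parental, of 12 arrays in all, chosen by their labels alone. The study placed 344SQ cells of either line (a mouse lung adenocarcinoma line) under the skin of female 129sv/ev mice, 5 mice to a group. Antibody at 10 mg/kg was given on days 4 and 7, and whole tumours were taken on day 11 for total RNA and Affymetrix mouse expression arrays. The parental group with anti-PD-1 (labelled Sen+PD1) and the resistant group with anti-PD-1 (labelled Res+PD1) therefore share host strain, sex, site, dose and day, and differ in the injected line. The parental and resistant groups that received control IgG, 3 arrays each, served as the same line comparison without the drug. How the resistant line was derived, whether it is 1 clone, and which mice lie behind which array were not given in the sources used here, so the p-values measure the spread between arrays, which may in part be technical. Because each array measured a whole tumour, fewer cells of a type and less RNA per cell cannot be told apart.

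Anti-PD-1 blocks PD-1, an inhibitory receptor on activated T cells, from engaging its ligand PD-L1 on tumour and myeloid cells. T cells and NK cells that recognise tumour cells release interferon gamma, which acts through the JAK kinases to raise IRF1, guanylate-binding proteins, antigen processing genes, MHC molecules and PD-L1 itself. Changes in this axis, in antigen presentation, in tumour cell state and in metabolism are among those studied in tumours that no longer respond.

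The deposited values are on a log2 scale, on which a difference of 1 is a 2-fold difference; each difference below is resistant minus parental, with its standard error (SE) and a limma p adjusted by the Benjamini-Hochberg method over all 15493 genes, and a gene is called when that p is under 0.05. Parental replicate 3 of the anti-PD-1 group stood apart. On the first principal component of the 12 arrays, which held 48.5% of the variance, it lay at 49.8, and its weight estimated by limma was 0.23 against 0.8 to 1.44 for the other 5 treated arrays. Counts over all genes and many list results are therefore given with and without it. Among the control arrays, parental IgG replicate 1 lay highest on the second component (21.6% of the variance), at 41.6, with a weight of 0.47. It is part of the values under control IgG below unless said otherwise. The label of lung adenocarcinoma was checked on marker genes. The keratins Krt8 and Krt18 ranged from 12.81 to 13.51 over the 6 arrays, and the hepatic and foregut regulator Hnf4a from 9.22 to 10.38. By contrast Nkx2-1, the transcription factor that defines alveolar lung epithelium, lay between 3.78 and 4.15, near the 3.32 below which probe sets were treated as dim, and the surfactant gene Sftpc between 4.32 and 5.08. The tumours thus carried an epithelial program with foregut features and low values for Nkx2-1 and Sftpc, in both lines. The 14 lung lineage genes tested, which include both, had a mean level of 6.51 to 6.6 in parental tumours under anti-PD-1. In resistant tumours under anti-PD-1 it was 6.02 to 6.24, so other members of that list were higher than these markers.

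Of the genes tested, 5186 (33.5%) were called under anti-PD-1, 3343 of them higher (21.6%) and 1843 lower (11.9%) in resistant tumours, while 44.1% had an unadjusted p under 0.05 and 59.3% a positive difference. Without parental replicate 3 the calls numbered 4500 (29.0%), 2901 higher (18.7%) and 1599 lower (10.3%), with 40.8% at an unadjusted p under 0.05. Called both with and without it were 4045 genes (26.1%). For 7074 genes (45.7%) the 3 resistant values lay wholly above or below the 3 parental ones, and 5042 of these (32.5% of all genes) were called. Most of the calls were small: 305 genes (1.97%) were higher and 389 (2.51%) lower by at least 2-fold, and the median difference over all genes was 0.07, or 0.03 after centring each array on its median. Counts within the gene lists below are to be read beside the shares of 21.6% higher and 11.9% lower over all genes. List counts under control IgG are to be read beside 8.93% higher and 7.31% lower. With 1 of the 6 arrays left out in turn, 2524 to 3173 of all genes were called higher and 1270 to 1871 lower. Of the 5186 calls, 3189 held whichever of the 6 arrays was left out. Beside these calls, the 3′ minus 5′ control signals also separated the lines: for Gapdh they were 0.36, 0.38 and 0.21 in parental and 0.09, 0.03 and -0.02 in resistant tumours, and their part in the results was not tested.

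Among genes called with and without parental replicate 3 and chosen for arrays that do not overlap between the lines, the 12 highest in resistant tumours were led by Ambp, a liver-type plasma protein precursor, and Cldn9, a tight junction claudin. Ambp measured 8.43, 8.09 and 8.92 in resistant and 5.21, 4.89 and 4.35 in parental tumours, a difference of 3.66 (SE 0.22, adjusted p = 1.32e-05, limma). Cldn9 measured 6.72, 7.25 and 6.5 against 3.53, 3.66 and 2.64 (difference 3.55, SE 0.31), with a parental mean of 3.28, just below the dim level, so the size of this difference is uncertain. In both genes the lowest resistant array stood far above the highest parental array. S100a4, a calcium-binding protein associated with motile and metastatic cells, was at 12.46, 12.42 and 12.46 in resistant and 9.93, 10.36 and 9.88 in parental tumours, so that the resistant arrays varied by little. Tm4sf4, a tetraspanin-like membrane protein of liver and pancreas, differed by 2.88, and Nrn1, the neurite growth factor neuritin, by 2.41. The rest of the 12 were Cym, Smim31, Alb, Gspt2, Tmprss11e, Mbnl3 and Nptx1, with differences from 2.38 (Nptx1) to 3.2 (Cym). Cym and Alb were uneven among the resistant arrays: Cym, the milk-clotting protease chymosin, ran from 5.71 to 7.9 there, and albumin from 6.68 to 9.08.

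The 12 lowest held genes of several kinds. Eif2s3y and Kdm5d, both on the Y chromosome, measured 7.22 to 7.72 and 5.23 to 6.14 in parental tumours, and 2.73 to 2.94 and 2.01 to 2.22, below the dim level, in resistant tumours. With Uty, which differed by -1.6, they were the 3 genes called lower of 7 tested on that chromosome, in hosts labelled female. Cdkn2a, the locus of the cell cycle inhibitor p16 and of p19Arf, measured 7.57, 7.09 and 7.13 in parental and 3.91, 3.97 and 3.49 in resistant tumours, a difference of -3.47 (SE 0.25, adjusted p = 2.92e-05, limma). Its neighbour Cdkn2b (p15) differed by -2.75, whereas Mtap, which lies beside them on chromosome 4 and was picked after its values were seen, was higher by 2.02. Cd274, the gene of PD-L1, measured 7.06, 8.62 and 9.04 in parental and 5.2, 4.66 and 6.12 in resistant tumours (difference -2.91, SE 0.55, adjusted p = 0.00255, limma). Its arrays did not overlap, although the lowest parental and the highest resistant array lay within 1 unit of each other. The chloride channel Cftr differed by -3.07 and the calcium channel Cacna1h by -3.36. Fosb and Fos, the granzyme Gzmg, Apol7a and the anion exchanger Slc26a4 (pendrin) completed the 12 with Afp, the fetal serum protein alpha-fetoprotein, at -2.91. Afp is uncertain, since of its 4 further probe sets 2 were also lower in resistant tumours and 2, above the dim level, had a difference of opposite sign near 0. The 24 genes at both extremes kept their call whichever of the 6 arrays was left out.

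**Figure D1:**
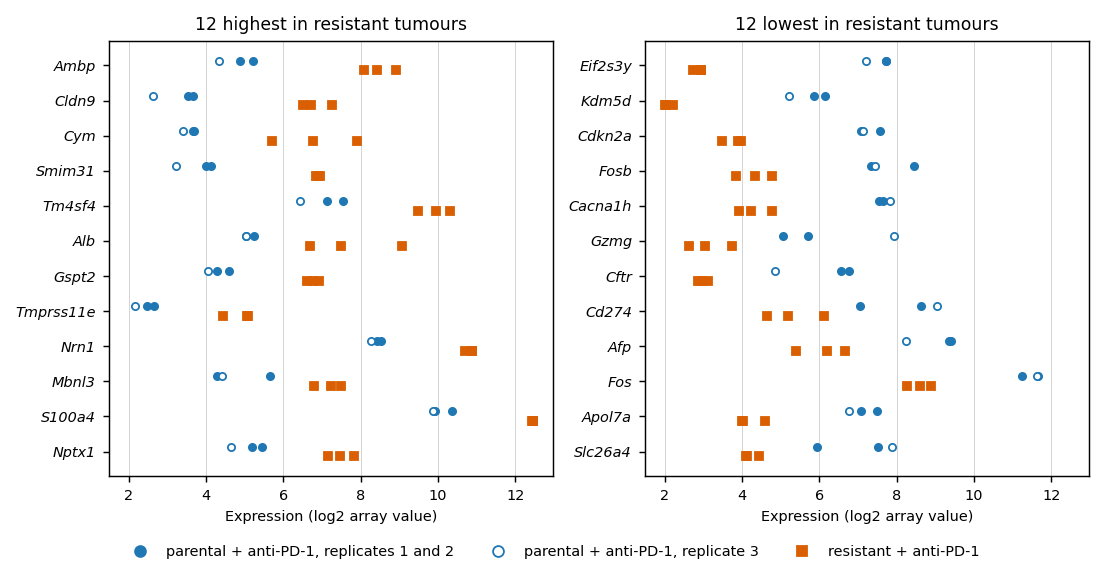
Expression of the 12 genes highest and the 12 genes lowest in resistant tumours under anti-PD-1, as log2 array values on the horizontal axis, with 1 symbol per array (circles parental, open for replicate 3; squares resistant). The genes were chosen so that the symbols of the lines do not overlap, with gaps widest for Eif2s3y and narrower for Cd274 and Gzmg.

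The interferon gamma program was lower in resistant tumours, most of all in its downstream targets. Of 20 targets tested, 12 were called lower and 0 higher, the 20 differences were all negative, and their median was -2.35 against 0.07 over all genes. The spread within each line was wide: the mean level of the 20 genes was 8.6, 9.95 and 9.99 in parental and 6.56, 6.42 and 8.56 in resistant tumours. Resistant replicate 3 was thus nearly as high as parental replicate 1, and the calls depended on single arrays. With parental replicate 2 or 3 or resistant replicate 1 left out, 2 targets were called lower, without resistant replicate 2 only 1, without parental replicate 1 the count was 14 and without resistant replicate 3 it was 17. The median stayed between -3.32 and -1.91 over these 6 alternatives. Under control IgG the median was -2.24 with 4 called lower.

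Irf1, the transcription factor induced first by interferon gamma, Irgm1, an immunity-related GTPase, and Irf8, a factor of myeloid cells, were the called targets with the smallest p whose promoters held a matching motif. Their promoter sequences are shown because the motifs are known elements of interferon-responsive promoters. The 3 genes were picked as called members with a motif, so their shared direction is not a separate result. They are from RefSeq (GRCm38.p6), the 250 bases before the transcript start, 5′ to 3′ on the strand of the gene. Capitals mark matches to the gamma-activated site TTCNNNGAA in Irf1 (chr11:53769764-53770013, plus strand) and Irf8 (chr8:120736108-120736357, plus strand), and to the interferon-stimulated response element, here GAAA, 2 bases of any kind and GAAA, in Irgm1 (chr11:48871421-48871670, minus strand), where 2 matches overlap. For Irf1 and Irf8 the table held 2 promoters each, of which 1 had a match and is shown.
Irf1: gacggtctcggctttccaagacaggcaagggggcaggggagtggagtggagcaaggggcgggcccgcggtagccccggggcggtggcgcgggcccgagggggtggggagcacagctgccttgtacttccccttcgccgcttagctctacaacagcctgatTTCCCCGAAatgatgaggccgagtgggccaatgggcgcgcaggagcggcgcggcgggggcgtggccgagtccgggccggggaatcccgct
Irgm1: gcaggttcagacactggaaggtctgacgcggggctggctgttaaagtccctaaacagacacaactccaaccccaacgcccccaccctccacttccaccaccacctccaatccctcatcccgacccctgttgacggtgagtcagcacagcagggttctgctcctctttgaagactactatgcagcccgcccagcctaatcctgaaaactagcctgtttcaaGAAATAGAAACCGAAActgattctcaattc
Irf8: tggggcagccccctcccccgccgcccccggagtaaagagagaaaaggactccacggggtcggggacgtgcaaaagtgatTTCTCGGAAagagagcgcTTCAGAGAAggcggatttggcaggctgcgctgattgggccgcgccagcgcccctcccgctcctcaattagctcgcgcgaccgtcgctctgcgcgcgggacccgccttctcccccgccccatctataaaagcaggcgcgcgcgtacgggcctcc
Both motifs were searched on both strands. The first was found before a start of 8.13% of the 27025 genes in the promoter table, the second in 3.46%, and either in 11.1%. Of the 13 tested targets with a promoter in the table, 10 held either motif, and so did 8 of the 9 called ones. The list was chosen as interferon gamma targets, so this share is not independent of that choice. A match describes the letters and is not evidence of binding.

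Irf1 measured 10.01, 11.03 and 11.31 in parental and 8.45, 8.31 and 9.72 in resistant tumours, a difference of -1.96 (SE 0.51, adjusted p = 0.0132, limma) that was lost without resistant replicate 2. Irgm1 measured 9.54, 10.56 and 10.54 against 7.59, 7.59 and 9.11 (difference -2.12, SE 0.59). Gbp8, a guanylate-binding protein of host defence, measured 7.12, 9.17 and 9.36 against 4.5, 4.12 and 6.97 (difference -3.35, SE 0.91). For Irf1, Irgm1 and Gbp8 the groups did not overlap, and resistant replicate 3 was the array nearest to the parental ones. Irf8 measured 6.87, 8.11 and 8.21 against 5.71, 5.74 and 6.91 (difference -1.61, SE 0.46, adjusted p = 0.02, limma), so that resistant replicate 3 just passed parental replicate 1, and it was not called without parental replicate 3 (adjusted p = 0.0678, limma). The calls of Irgm1 and Gbp8 were lost without parental replicate 2 or 3 or resistant replicate 1 or 2.

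In the list of the ligand, its receptor, signalling factors and feedback inhibitors, which also holds Irf1, 6 of 11 genes were called lower and 1 higher, with a median of -0.51. The ligand Ifng itself measured 4.34, 6.04 and 5.19 in parental and 3.49, 3.3 and 3.79 in resistant tumours (difference -1.66, adjusted p = 0.02, limma). The kinases went opposite ways: Jak1 was higher by 0.46 and Jak2 differed by -0.51, each with arrays that did not overlap, but 1 further probe set of Jak1 above the dim level had the opposite sign. Socs3, a feedback inhibitor of JAK signalling, differed by -0.78. The count of 6 fell to 3 without parental replicate 2 or resistant replicate 1, and to 2 without resistant replicate 2.

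Antigen presentation followed. In the MHC class I pathway 11 of 17 genes were called lower and 0 higher (median -1.16). Tap2, a subunit of the peptide transporter, measured 7.22, 7.88 and 8.24 in parental and 5.4, 5.72 and 6.48 in resistant tumours (difference -1.91, SE 0.44, adjusted p = 0.00681, limma). Tapbp, which bridges class I to that transporter, measured 10.44, 10.89 and 11.05 against 8.85, 8.74 and 9.65, and Tapbpl, its homologue, differed by -1.4. These 3 kept their call in each of the 6 fits that left out 1 array, but the count of 11 fell to 3 without parental replicate 2 or 3 or resistant replicate 1 or 2. Tap1, the other subunit, differed by -2.65 with its call lost in the same 4 fits. Its 3 further probe sets differed by only 0.05, 0.16 and -0.07, and 1 of those of opposite sign lay above the dim level. The size of the Tap1 difference is thus uncertain. In class II presentation, a pathway of dendritic cells, macrophages and B cells, 7 of 9 genes were called lower (median -1.68), 4 without resistant replicate 2. Without parental replicate 3 it was 5, with a median of -1.46. The beta chain H2-Ab1 measured 10.03, 10.9 and 11.13 against 8.61, 8.54 and 9.87, and the invariant chain Cd74 differed by -1.89. Under control IgG 1 gene of each pathway was called lower, with medians of -0.79 for class I and -1.28 for class II.

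Targets of type I interferon, many of which also respond to interferon gamma, were called lower in 14 of 23 cases and higher in 0, with a median of -1.28. The nucleic acid sensor Zbp1 measured 6.69, 7.53 and 8.33 in parental and 5.2, 4.66 and 5.59 in resistant tumours (difference -2.37, SE 0.47), and the signalling factor Stat2 differed by -1.48 and the antiviral synthetase Oas2 by -1.27. Parental replicate 3 was the highest array for these 3 genes, and each kept its call without it. The count of 14 fell to 5 without parental replicate 2, 4 without parental replicate 3, 3 without resistant replicate 1 and 4 without resistant replicate 2.

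Markers of cytotoxic T and NK cells were lower as well, at levels close to the dim limit. Of 24 tested, 10 were called lower and 0 higher (median -0.94), and the mean level was 4.8, 5.81 and 5.82 in parental against 4.32, 4.07 and 4.77 in resistant tumours, again with parental replicate 1 and resistant replicate 3 nearest to each other. Of the 8 granzymes tested, the proteases of killer cell granules, Gzma, Gzmb, Gzmf, Gzmg and Gzmk were called lower and Gzmc, Gzmd and Gzme were not, with differences from -3.08 (Gzmg) to 0.05 (Gzme). Gzmg measured 5.06, 5.7 and 7.92 in parental and 2.64, 3.04 and 3.75 in resistant tumours, and Gzmf 4.46, 5.59 and 6.97 against 2.82, 3.01 and 3.94. Gzmg and Gzmf lie in 1 granzyme cluster of similar sequences, so their probe sets may share signal. Gzmk differed by -0.93 and the interleukin receptor chain Il2rb by -1.51. Cd8a, which marks cytotoxic T cells and was read as a defining marker, measured 4.66, 6.01 and 5.25 against 4.53, 4.68 and 4.82 and was not called (difference -0.63, adjusted p = 0.144, limma). The count of 10 was 18 without parental replicate 1, 4 without parental replicate 2, 5 without parental replicate 3, 6 without resistant replicate 1 and 4 without resistant replicate 2.

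Among markers of CD4 and regulatory T cells, 5 of 11 were called lower (median -0.54), 8 without parental replicate 1 and 3 without resistant replicate 2. Without parental replicate 3 it was 4, with a median of -0.4. The inhibitory receptor Ctla4 measured 4.88, 6.96 and 5.7 in parental and 4.04, 3.71 and 4.55 in resistant tumours (difference -1.75, SE 0.43), and the co-stimulatory receptor Icos differed by -1.56 with its call lost without resistant replicate 2. The smaller differences of Ikzf2 (-0.75) and Tnfrsf4 (-0.45), both expressed by regulatory T cells, had narrow spreads and non-overlapping arrays. Of 14 checkpoint genes 7 were called lower and 1 higher, the latter being Lgals9 (galectin-9, difference 0.75). Cd274 is also in the interferon gamma target list and Ctla4 in the CD4 list, so the counts of these lists are not separate. The 7 became 11 without parental replicate 1, 4 without parental replicate 2 or 3 or resistant replicate 2, and 3 without resistant replicate 1. The drug's own target Pdcd1 measured 3.12, 4.49 and 3.74 against 2.95, 2.83 and 3.17, so the arrays overlapped and the resistant ones lay below the dim level. Its difference of -0.8 (adjusted p = 0.0437, limma) was lost in 5 of the 6 fits that left out 1 array, that without parental replicate 1 being the exception. Nt5e, the ecto-enzyme CD73, differed by -0.73, but 1 further probe set above the dim level had the opposite sign.

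In other immune lineages several of the counts turned on parental replicate 3. Of 21 macrophage and monocyte markers 4 were called lower and 1 higher (median -0.23), which became 2 and 2 with a median of 0.06 without that array. The lower count was 8 without parental replicate 1, 2 without parental replicate 2 or resistant replicate 1, and 1 without resistant replicate 2. Lyve1, a hyaluronan receptor of lymphatic vessels and of tissue macrophages, was the one called higher, by 1.4, although without parental replicate 1 or resistant replicate 2 it was not called. Mertk, a receptor for dying cells, differed by -0.82. Neutrophil genes had a mean level of 5.58, 6.31 and 8.12 in parental and 6.43, 5.43 and 6.16 in resistant tumours, so that parental replicate 3 alone was high, and their median moved from -0.51 to 0.02 without it. The neutrophil chemokine Cxcl1 measured 8.61, 9.24 and 10.0 against 8.36, 7.47 and 7.95 and remained called without replicate 3 (difference -1.0). Mast cell tryptases were lower, with differences of -1.67 for Tpsab1 and -1.21 for Tpsb2, within a list of 10 of which 5 were called lower (2 to 6 when 1 array was left out, with at most 3 unless that array was resistant replicate 3). Itgax, the integrin CD11c of dendritic cells, differed by -1.44, within 2 of 10 dendritic cell genes called lower, 1 of 10 without parental replicate 2 or resistant replicate 2. Of 9 B and plasma cell genes 1 was called lower, Cd22, and its call was lost in 5 of the 6 fits that left out 1 array.

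Host tissue in the samples was uneven. Skeletal muscle genes, such as those of the sarcomere, had a mean level of 8.81, 9.29 and 10.55 in parental and 5.7, 8.26 and 7.71 in resistant tumours. All 21 differences were negative with a median of -2.3, and 6 were called lower, but 0 without parental replicate 3, 3 without parental replicate 2 and 1 without resistant replicate 1 or 3. The giant sarcomere protein Ttn ran from 8.82 to 10.82 in parental and from 5.2 to 7.93 in resistant tumours, and the calcium release channel Ryr1 from 6.42 to 8.47 and from 3.1 to 5.86. Under control IgG the median difference of the same 21 genes was 0.31. Their mean level there was 6.14, 9.71 and 9.04 in parental and 8.52, 8.11 and 9.05 in resistant tumours. Parental IgG replicate 1 was thus the lowest of these arrays, and the other parental IgG arrays were not below the resistant range. The part of this muscle RNA in the other differences was not tested. Of 24 fibroblast and matrix genes 1 was called higher and 2 lower, and of 20 endothelial genes 0 and 2. The endothelial count of 2 lower was 1 without parental replicate 1 or resistant replicate 1 or 3, and 1 gene was called higher without parental replicate 3. Without parental replicate 3 the fibroblast genes read 4 higher and 1 lower, and with any other single array left out 0 to 1 higher and 0 to 3 lower. The matrix protein Mgp was higher by 1.16, its call lost without 4 of the 6 arrays in turn, and the vascular receptor Flt1 differed by -0.72 with non-overlapping arrays.

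**Figure D2:**
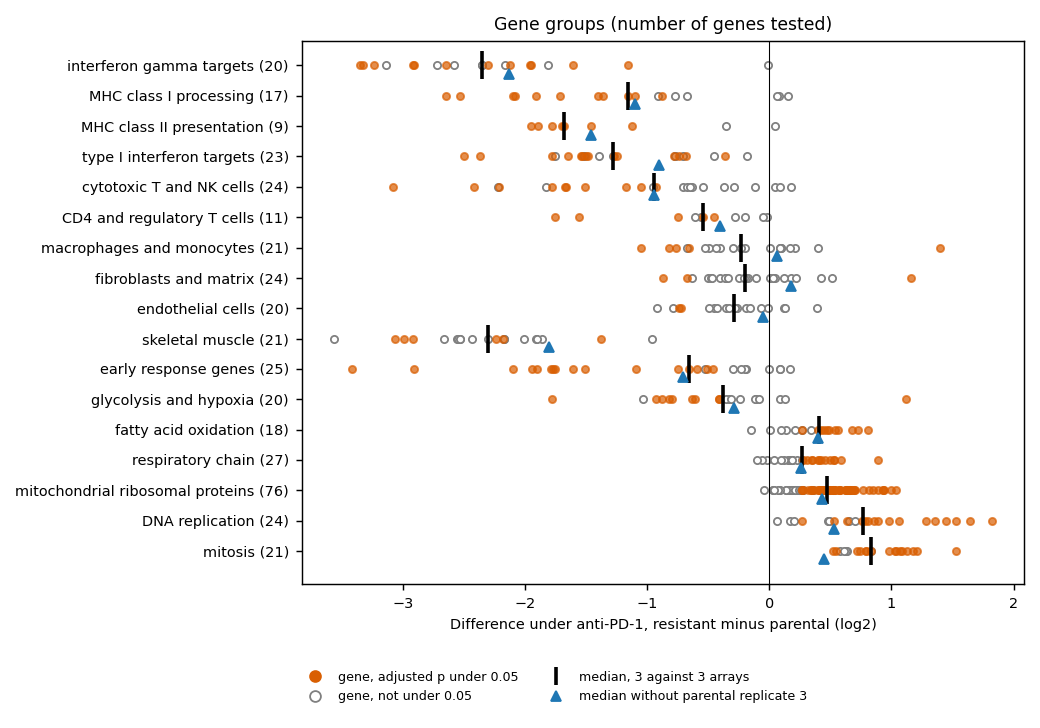
Difference between resistant and parental tumours under anti-PD-1 (log2, horizontal axis) for the genes of 17 groups, 1 circle per gene, filled where the adjusted p was under 0.05, with black bars for medians and triangles for medians without parental replicate 3. Immune and muscle groups lie to the left, with medians down to -2.35 for interferon gamma targets (the medians of macrophage and fibroblast genes turned to 0.06 and 0.18 without parental replicate 3), and mitochondrial and cell cycle groups to the right, up to 0.83 for mitosis.

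Early response genes, which encode transcription factors and phosphatases switched on within minutes of growth factor or stress signals, were lower in resistant tumours and depended little on any one array. Of 25 tested, 16 were called lower and 0 higher (median -0.66), and between 16 and 18 were called lower whichever of the 6 arrays was left out. Fosb measured 7.35, 8.44 and 7.44 in parental and 4.34, 4.78 and 3.84 in resistant tumours (difference -3.42, SE 0.31, adjusted p = 7.11e-05, limma). Fos measured 11.23, 11.65 and 11.63 against 8.28, 8.61 and 8.9 (difference -2.91, SE 0.18). Both genes, which encode Fos-family subunits of the AP-1 factor, were thus well separated between the lines. Atf3, a stress-induced factor, measured 8.11, 9.01 and 8.62 against 6.54, 6.72 and 6.66, and Egr1, a zinc finger factor of the growth response, 11.57, 12.11 and 11.6 against 9.47, 9.83 and 10.27. The members that were not called included Fosl1 (difference 0.17), Junb (-0.19) and Myc (-0.2).

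The mean level of the 25 genes shows where the separation lay. It was 8.94, 9.24 and 9.14 in parental tumours under anti-PD-1 and 8.02, 8.11 and 8.1 in resistant ones. Under control IgG it was 8.31, 8.29 and 8.36 in parental and 8.2, 8.11 and 8.04 in resistant tumours. The 3 treated parental arrays were thus above the other 9, parental replicate 3 being the middle one of the 3. Under control IgG 5 of the 25 genes were called lower and 1 higher. Genes of this kind are also known to respond to the handling of tissue before lysis, whose timing was not given in the sources used here, and its part in these values was not tested.

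Promoters of 2 called members, picked after their values were seen, are shown because they hold the complete cyclic AMP response element through which CREB and ATF factors act. Capitals mark TGACGTCA, which reads the same on both strands, in the 250 bases before the starts of Btg2 (chr1:134079156-134079405, minus strand), an antiproliferative gene, and Dusp1 (chr17:26508473-26508722, minus strand), a phosphatase that switches off MAP kinases (RefSeq, GRCm38.p6).
Btg2: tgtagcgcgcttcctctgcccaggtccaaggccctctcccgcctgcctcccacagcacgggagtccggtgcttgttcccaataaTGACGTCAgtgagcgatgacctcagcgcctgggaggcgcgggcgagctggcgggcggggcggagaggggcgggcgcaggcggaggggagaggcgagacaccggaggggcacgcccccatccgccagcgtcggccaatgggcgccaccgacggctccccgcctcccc
Dusp1: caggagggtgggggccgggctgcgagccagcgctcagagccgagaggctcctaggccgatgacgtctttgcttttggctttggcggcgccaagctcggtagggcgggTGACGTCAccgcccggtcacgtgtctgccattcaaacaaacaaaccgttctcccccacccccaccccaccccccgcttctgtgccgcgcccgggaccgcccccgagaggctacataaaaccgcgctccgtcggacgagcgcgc
The element was found in 3 of the 20 tested early response genes with a promoter in the table, and in 1.77% of all genes there. The list was chosen as early response genes, so this share is not independent of that choice. Here too a match is not evidence of binding. Btg2 measured 7.29, 7.6 and 7.99 in parental and 5.84, 5.94 and 6.26 in resistant tumours, and Dusp1 10.26, 10.48 and 10.8 against 8.83, 8.84 and 8.63. Neither gene overlapped between the lines.

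Cytokines of the interleukin-6 family moved in the same direction, with 7 of 12 genes of this family and of prostaglandin synthesis called lower and 0 higher (median -0.54). The lower count was 7 without parental replicate 1 and 5 with any other of the 6 arrays left out. Without parental replicate 3, 1 gene was called higher. Lif, which maintains stem and progenitor states, measured 7.37, 7.6 and 7.47 in parental and 5.67, 5.87 and 5.84 in resistant tumours (difference -1.69, SE 0.13). Il6 measured 6.06, 7.11 and 8.26 against 4.49, 5.08 and 5.34 (difference -2.17, SE 0.47), and Osm, oncostatin M, differed by -0.89. Under control IgG Il6 differed by 0.63 with adjusted p = 0.374 (limma) and Lif by -1.11. The 3 genes kept their call without parental replicate 3.

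Tumour cell identity genes went in both directions. Of 23 epithelial genes 4 were called higher and 5 lower (2 higher without parental replicate 2 or resistant replicate 2). Without parental replicate 3, 3 were called higher and 7 lower. The shares over all genes were 21.6% higher and 11.9% lower. Claudins 9 and 6 were higher, Cldn6 by 1.35, while the tight junction protein occludin (Ocln) measured 7.06, 7.04 and 6.5 in parental and 4.47, 3.85 and 3.96 in resistant tumours, and Ehf, an epithelial ETS factor, 7.68, 7.56 and 7.23 against 5.14, 4.02 and 4.69. Of 14 lung lineage genes 2 were called higher and 5 lower. Besides Cftr these were led by the surfactant transporter Abca3, lower at 7.59 to 7.81 in resistant against 8.42 to 8.71 in parental tumours, and the surfactant protein Sftpd, which differed by -1.14. The membrane mucin Muc1 was higher by 1.0.

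Among 16 liver and foregut genes tested 7 were called higher and 3 lower (median 0.33). Apart from Ambp and Alb, the higher ones included Ttr, transthyretin, at 9.0, 8.33 and 9.62 in resistant against 7.02, 6.9 and 6.49 in parental tumours. Apob, the structural protein of lipoproteins, was lower at 7.51 to 7.66 against 8.84 to 9.79, and Afp as given above. Resistant replicate 3 was the highest array for Ambp, Alb and Ttr. Under control IgG Ttr differed by -0.26 and Alb by 0.82, neither called, and Ambp by 2.63 (adjusted p = 0.00011, limma). In the TGF-beta and BMP response 3 of 13 genes were called higher and 3 lower (1 lower without parental replicate 2 or 3 or resistant replicate 3). The inhibitors of differentiation Id1 (0.81) and Id3 (1.5) were higher, and the ligand Bmp4 differed by -1.15.

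Cell cycle genes were higher in resistant tumours. Of 24 DNA replication genes 16 were called higher and 0 lower, with a median of 0.77, or 0.53 without parental replicate 3. Between 13 and 21 were called higher whichever of the 6 arrays was left out. The sliding clamp Pcna measured 10.55, 10.74 and 10.4 in parental and 11.38, 11.52 and 11.46 in resistant tumours (difference 0.89, SE 0.09, adjusted p = 0.000134, limma), and Gins2, a subunit of the replicative helicase, 6.62, 6.98 and 6.05 against 8.39, 8.43 and 8.29. The 3 resistant arrays were tight and stood above the parental ones in both genes. Of 21 mitosis genes 16 were called higher and 0 lower (median 0.83). The mitotic kinase Cdk1 measured 8.16, 8.82 and 7.79 against 9.2, 9.38 and 9.13, and the kinetochore protein Ndc80 differed by 1.13. Parental replicate 3 was the lowest array for these genes. Without it the mitosis genes called higher numbered 11 and their median was 0.45, without resistant replicate 2 the count was 6, and without the other arrays in turn 11 to 21.

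Among 14 genes of the G1 phase, a list of cell cycle inhibitors, cyclins and kinases that also holds Mtap, 5 were called lower and 2 higher. Without parental replicate 3, 7 were called lower and 3 higher. Against the lower Cdkn2a and Cdkn2b, the related inhibitor Cdkn2c (p18) was higher by 1.02, at 8.81 to 8.87 in resistant and 7.74 to 7.9 in parental tumours. The cyclin Ccnd2 measured 9.88, 9.91 and 9.5 in parental and 7.98, 7.81 and 8.14 in resistant tumours, a difference of -1.79. For Cdkn2a, Cdkn2b, Cdkn2c and Ccnd2 the line differences under control IgG, which come from other arrays, were -3.73, -3.34, 1.03 and -2.03.

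Mitochondrial genes were higher in resistant tumours by small and even amounts. Of 76 mitochondrial ribosomal protein genes 55 were called higher and 0 lower (median 0.47), 48 to 53 of them when 1 of the 6 arrays was left out. Their mean level was 8.25, 8.28 and 8.15 in parental and 8.69, 8.66 and 8.7 in resistant tumours, so the lines did not overlap. Mrpl58 measured 7.57, 7.68 and 7.61 against 8.74, 8.6 and 8.64 (difference 1.04, SE 0.1). In the respiratory chain 13 of 27 genes were called higher and 0 lower (median 0.27), among them the ATP synthase subunit Atp5a1, at 11.01, 10.97 and 11.01 against 11.51, 11.63 and 11.61. In fatty acid oxidation 11 of 18 were called higher and 0 lower (median 0.41), led by Cpt2, the carnitine transferase of the inner membrane, at 7.45, 7.44 and 7.56 against 8.0, 8.02 and 8.11, and by the electron carrier Etfa, higher by 0.68. After quantile normalization the medians of these 3 groups were 0.41, 0.24 and 0.35. The deposited array medians were already close (4.75 to 4.89), so this step could change little. The part of the earlier scaling was not tested.

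Glycolysis and hypoxia genes mostly went the other way, with 9 of 20 called lower and 1 higher (median -0.38). The hexokinase Hk2 measured 9.57, 10.2 and 10.49 in parental and 8.26, 8.39 and 8.26 in resistant tumours (difference -1.78, SE 0.22, adjusted p = 0.000244, limma). Hk1, its housekeeping relative, measured 9.54, 9.46 and 9.46 against 8.73, 8.93 and 8.91, and the angiogenic factor Vegfa differed by -0.82. The 1 gene called higher was the carbonic anhydrase Car9 (1.12). Between 7 and 10 genes were called lower whichever array was left out. Of 14 genes of lipid uptake and droplets 4 were called lower and 0 higher (2 lower without resistant replicate 2), with Dgat1, an enzyme of triglyceride synthesis, at 7.89, 7.8 and 7.85 against 7.1, 7.12 and 7.12.

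Fatty acid binding proteins, which carry lipids inside cells, did not move as a family, with 2 of 7 called higher and 1 lower. Over all genes 21.6% were called higher and 11.9% lower. Fabp5, the epidermal form, measured 10.4, 10.76 and 10.75 in parental and 9.71, 9.13 and 9.54 in resistant tumours (difference -1.18, SE 0.2, adjusted p = 0.00126, limma). Fabp7, the brain form, measured 3.17, 3.04 and 3.18 against 5.16, 4.17 and 6.76, with the parental arrays below the dim level and a wide spread among the resistant ones (difference 2.23, SE 0.53). Fabp6 differed by 0.33 near the dim level, and its call was lost without resistant replicate 2 or 3. Fabp4, the form of adipocytes and macrophages, measured 8.13, 9.32 and 10.7 against 8.35, 9.34 and 9.12, overlapping (difference -0.45, adjusted p = 0.749, limma). Fabp3 differed by -1.05, Pmp2 by -0.16 and Fabp12 by 0.1, none of them called, and Fabp3 and Fabp4 each had 1 further probe set above the dim level of opposite sign.

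Ferroptosis is a death by iron-dependent lipid peroxidation that CD8 T cells can promote in tumour cells. Of 21 defence genes 8 were called higher and 2 lower (median 0.24). The lower count was 4 without parental replicate 1 and 1 without resistant replicate 1 or 2. Gpx4, the peroxidase at the centre of this defence, measured 11.3, 11.38 and 11.29 in parental and 11.67, 11.68 and 11.77 in resistant tumours (difference 0.38, SE 0.09, adjusted p = 0.00709, limma), a small shift with tight replicates. Gch1, which makes the antioxidant cofactor tetrahydrobiopterin, was higher by 0.94, Dhodh, a mitochondrial reducer of ubiquinone, by 1.11, and the glutathione reductase Gsr by 0.93. The cystine carrier Slc7a11 measured 3.68, 4.92 and 4.31 against 3.42, 3.91 and 3.96 and was not called (difference -0.54, adjusted p = 0.164, limma). Of 19 drivers and markers 2 were called higher and 4 lower (4 higher without parental replicate 3, 2 lower without parental replicate 2 or resistant replicate 3). Acsl4, which loads membranes with oxidisable fatty acids, measured 9.98, 10.11 and 9.65 against 9.51, 9.51 and 9.42. Its difference of -0.43 had an adjusted p of 0.0155 (limma) and its call was lost without parental replicate 2 or resistant replicate 3. Of 19 targets of the antioxidant factor NRF2 5 were called higher and 1 lower (2 lower without parental replicate 1 or 2), with the glutathione transferases Gsta4 (1.36) and Gstp1 (0.54) higher and the malic enzyme Me1 at -0.82. Beside the counts of these 3 lists, 21.6% of all genes were called higher and 11.9% lower.

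The same line comparison under control IgG shares no array with the treated one. There 2517 genes (16.2%) were called, 1384 higher (8.93%) and 1133 lower (7.31%), with 33.1% at an unadjusted p under 0.05. Of these 1709 were also called under anti-PD-1, which is 67.9% of the calls under IgG and 33.0% of those under anti-PD-1, and 5 of them had opposite signs. Across the 15493 genes, which are not independent, the 2 sets of differences correlated at r = 0.58. Eif2s3y, Cdkn2a, Cldn9 and Cacna1h had almost the same difference under both antibodies, -4.68 and -5.01 for Eif2s3y and 3.55 and 3.45 for Cldn9. Atf3 (-1.94 and -0.04), Fosb (-3.42 and -0.51), Cym (3.2 and 0.37) and Ttr (2.18 and -0.26) were called under anti-PD-1 and not under IgG.

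**Figure D3:**
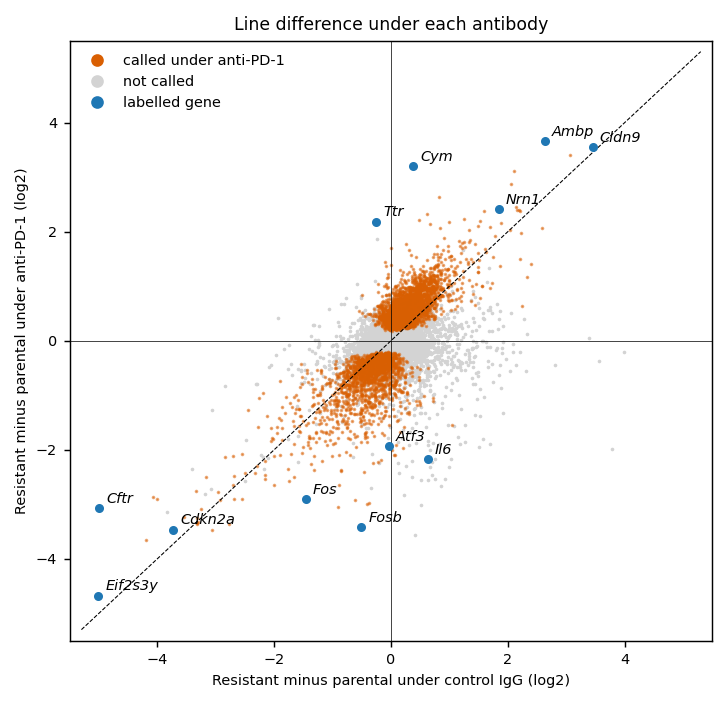
Resistant minus parental difference (log2) of each of 15493 genes under control IgG (horizontal) and under anti-PD-1 (vertical), with genes called under anti-PD-1 in orange and the dashed line where both are equal. Eif2s3y, Cdkn2a and Cldn9 lie near that line, while Fosb, Atf3, Il6, Cym and Ttr lie within 1 log2 unit of 0 under IgG.

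A direct test of the difference between these differences, the interaction term of the 12-array fit, called 0 genes (limma, adjusted p under 0.05), with 2713 (17.5%) at an unadjusted p under 0.05. With array weights it called 121, and without parental anti-PD-1 replicate 1 it called 78. The smallest p among negative terms belonged to Nav2, Atf3 and Fosb, and among positive terms to Exph5, Zfp606 and H3f3b, each at an adjusted p of 0.101 (limma). For Nav2, a neuron navigator, the term was -1.37, for Atf3 -1.9 and for Fosb -2.91, and for Exph5, Zfp606 and the histone gene H3f3b it was 1.1, 1.39 and 0.91. Nav2 had 2 and Zfp606 1 further probe set above the dim level whose line difference had the opposite sign. By group, an unadjusted p under 0.05 was reached by 18 of 25 early response genes, 43 of 76 mitochondrial ribosomal genes and 16 of 20 endothelial genes, against 0 of 20 interferon gamma targets and 3 of 21 skeletal muscle genes. Endothelial genes had a median line difference of -0.29 under anti-PD-1, or -0.05 without parental replicate 3, and 0.59 under IgG. Mitochondrial ribosomal genes had a median of 0.47 against 0.12, and interferon gamma targets -2.35 against -2.24. Since no gene passed the adjusted threshold, no single gene was shown to differ in its line effect between the antibodies.

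**Figure D4:**
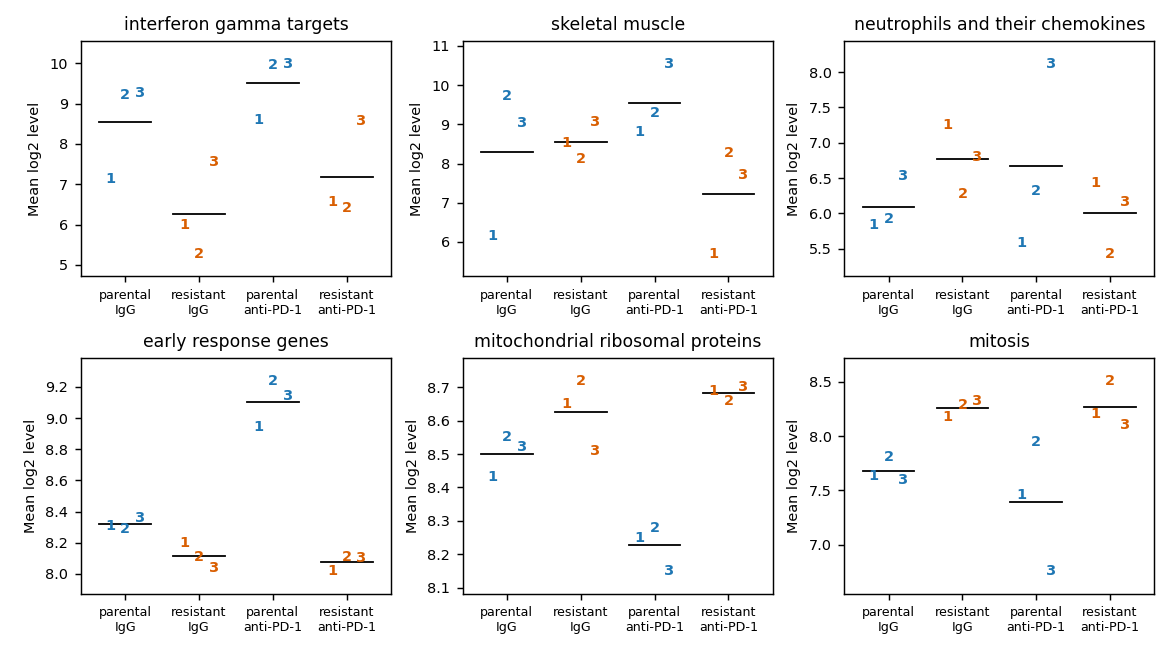
Mean log2 level of 6 gene groups in each of the 12 arrays, with digits for replicate numbers (the labels do not say that equal numbers belong together) and black lines for group means; vertical axes differ between panels and do not start at 0. Early response genes are at 8.94 to 9.24 in treated parental tumours and at 8.02 to 8.36 in the other 9 arrays, and neutrophil genes reach 8.12 in parental replicate 3.

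The line difference was also unequal between chromosomes. On chromosome 8, 369 of 816 genes were called higher (45.2%, against 21.6% of all genes) and 38 lower (4.66%), with a median of 0.27. Chromosome 4 had 31.0% called higher and 8.09% lower, with a median of 0.14. Chromosome 15 leaned the other way, with 9.05% higher and 21.8% lower, and chromosome 6 likewise, with 9.98% higher and 18.0% lower, and both had a median of -0.03. Under control IgG the medians of chromosomes 8 and 15 were 0.25 and -0.06. No DNA was measured, so the copy number of these chromosomes is not known from these arrays.

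**Figure D5:**
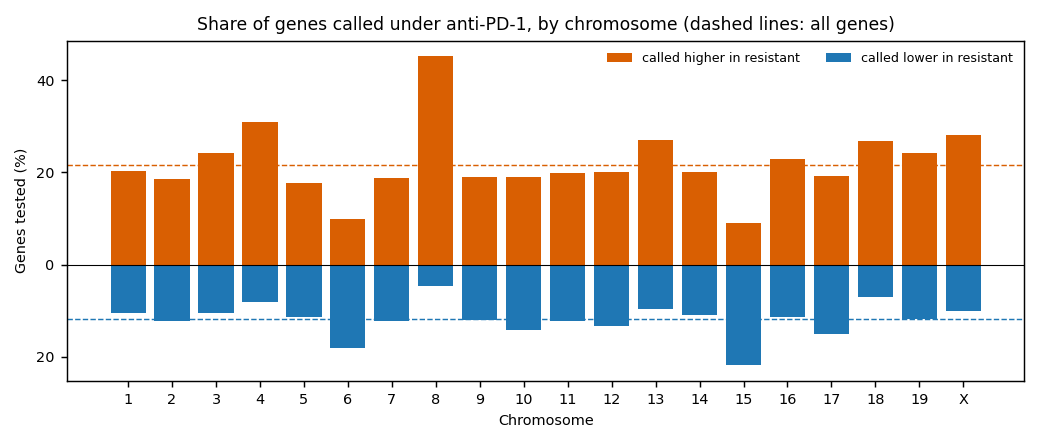
Share of the genes tested on each chromosome that were called higher (bars above 0) or lower (bars below 0) in resistant tumours under anti-PD-1, in percent, with dashed lines at the shares over all genes (21.6% and 11.9%). Chromosome 8 reaches 45.2% higher, and chromosomes 6 and 15 have more genes lower than higher.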

How the data were processed

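Total RNA of whole tumours was hybridised to Affymetrix mouse expression arrays, 3 per group. The authors deposited 1 table of log2 values, and its background correction, normalization and summarization are not given in the sources used here; the values run from 1.62 to 13.88, and the array medians from 4.75 to 4.89. Of 45101 probe sets, 34945 had 1 gene symbol in the platform annotation, 932 several and 9160 none, and 64 were controls; 34741 were updated by gene number. Each of 18193 genes was represented by its brightest probe set, judged by the mean of the 12 arrays (9010 genes had several), and 15493 genes with at least 3 arrays above the 25th percentile of all values, 3.32, were tested. Of 3050 called genes with further probe sets, 1007 had one of opposite sign. No 2 arrays were identical (correlations 0.959 to 0.997), and their number limits the precision.

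limma 3.58.1 in R 4.3.3 fitted 1 mean per group to 12 arrays (8 residual and 2.98 prior degrees of freedom), with contrasts for the line under each antibody and their interaction. Only the contrast under anti-PD-1 was checked on simulated data, which had independent normal errors and no outlying array. Arrays of the same number in both treated groups had deviations correlating at 0.27, 0.09 and 0.22, so the numbers were not taken to pair samples. Gene lists (43 with 808 entries, 731 tested) and the compared arrays were chosen with earlier results of these data known. Some genes are in more than 1 list. Genes named are the 12 highest and 12 lowest differences called with and without parental replicate 3 whose arrays do not overlap, leaving out predicted genes, clones and receptor segments; the up to 4 smallest p of a list; the fatty acid binding proteins, Pdcd1, Cd274, Gpx4, Slc7a11, Acsl4, Cdkn2a, Cdkn2b and Y-linked genes; and the smallest interaction p. Other genes named were chosen after their values were seen, as marker checks, ligands, or examples of what was and was not called. Alternatives were array weights, centring, quantile normalization, other filters and probe set rules, a trended robust prior, only the compared arrays, a replicate block, and leaving out each array. Parental IgG replicate 1 and parental anti-PD-1 replicate 3 were also left out together. Figures used Python 3.11.15 and matplotlib 3.10.9.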

Additional observations from a re-analysis of the deposited data

How the results depend on the processing

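The count of 5186 called genes under anti-PD-1 stayed within 1.5 times in every alternative run, from 3826 to 5044 with 1 array left out and up to 5753 with array weights. An alternative chosen after seeing the data, only the compared arrays without parental replicate 3, gave 4185. Centring each array gave 2810 higher and 2009 lower. With the replicate number as a block the count was 5601, that under control IgG 2856 and that of the interaction 3; the numbers may share nothing but a label. Under control IgG the 2517 calls became 5152 with array weights and 1273 to 2268 with 1 array left out. They numbered 1742, 1541 and 1568 with parental IgG replicates 1, 2 and 3 left out in turn. With resistant IgG replicates 1 and 2 left out in turn they numbered 1472 and 1273. Leaving out parental IgG replicate 1 together with parental anti-PD-1 replicate 3 gave 4891 calls under anti-PD-1, 2956 under control IgG and 0 for the interaction. The interaction count of 0 became 121 with array weights and 0 to 78 with 1 array left out, 78 when parental replicate 1 of the anti-PD-1 group was dropped and 1 when parental replicate 3 of the IgG group was. The causes were not tested. Over the named genes and alternatives, 2912 values kept direction and side of the threshold, 206 lost the call, 46 gained it and 0 reversed while called. Leaving out any 1 of the 6 arrays left 121 of 158 called genes among them still called. Probe sets near 3.32 are limited by signal over background. The means of the Y-linked genes, Gzmg, Gzmf, Cftr and Pdcd1 in resistant tumours and of Cldn9, Tmprss11e, Fabp6, Fabp7 and Fabp12 in parental tumours lie below it, so the sizes of their differences are uncertain.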

Other observations

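Among the other gene groups under anti-PD-1, of 15 mesenchymal genes 2 were called higher and 2 lower (median 0.15). S100a4 was one of those higher and Tgfb2, a TGF-beta ligand, the other, at 6.4, 6.33 and 5.47 in resistant against 5.27, 5.0 and 5.1 in parental tumours. N-cadherin (Cdh2) differed by -0.68 and the repressor Zeb2 by -0.5, so the list moved in no single direction. None of 14 Wnt and Notch response genes was called, the smallest adjusted p being 0.0702 (limma), and 2 were called higher without parental replicate 3. Of 21 genes of sterol and fatty acid synthesis 1 was called higher and 3 lower, and their median turned from 0.13 to -0.12 without parental replicate 3. The higher count was 3 without parental replicate 2 and 0 without parental replicate 1 or 3 or resistant replicate 2 or 3. The elongase Elovl5 was among those lower, with a difference of -0.36.

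Of 13 adipocyte genes 2 were called higher and 0 lower, with the regulator Pparg at 7.71, 7.77 and 7.75 in resistant and 7.15, 7.29 and 7.01 in parental tumours; the other call was lost in 5 of the 6 fits that left out 1 array. Of 5 nerve and Schwann cell genes 2 were called higher (1 without parental replicate 3 or resistant replicate 3), led by S100b with a difference of 1.15. Of 8 genes of regenerating muscle (median -0.76) 3 were called lower, 0 without parental replicate 3, 1 without resistant replicate 1 and 5 without parental replicate 1. None of 9 keratinocyte and 2 red blood cell genes was called, with smallest adjusted p-values of 0.0537 and 0.388 (limma), and 1 keratinocyte gene was called higher without parental replicate 1 or 3.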
